A study of Mus musculus with 2 samples.

Results

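The BCL2 family decides at the mitochondrial outer membrane whether a cell starts intrinsic apoptosis. Here it was described by 10 genes, of 14732 listed in at least 1 of the 2 libraries: the pro-survival genes *Bcl2*, *Bcl2l1* and *Mcl1*, the effectors *Bax* and *Bak1*, and the BH3-only genes *Bcl2l11*, *Bid*, *Bad*, *Bbc3* and *Pmaip1*. The genes were taken by symbol, with earlier results of these data known, and all 10 were listed in both libraries. CD8+ T cells from spleen and lymph nodes of C57BL/6 mice of 6 to 8 weeks that carry the OT-I T cell receptor, which recognizes an ovalbumin peptide, were activated for 24 h with 2.5 ng/mL of the peptide SIINFEKL and 10 U/mL of IL-2. They were transduced with the retroviral vector RVKM, either empty (control) or encoding Eomes, a T-box transcription factor. Both vectors carried human CD2 behind an internal ribosome entry site, hCD2+ cells were sorted 48 h later, and 40000 cells per well were restimulated for 3 days with peptide and IL-2 at those doses before RNA was extracted. Each condition is 1 library, called the control and the Eomes library here, the number of mice behind it is not given in the sources used here, and Eomes comes from a viral vector, so the cells stand for forced expression in culture.

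Pro-survival BCL2 proteins bind BAX and BAK, the effectors that open pores in the outer membrane, and keep them inactive. BH3-only proteins carry a short helix, the BH3 domain, that fits the groove of the pro-survival proteins and frees or directly activates the effectors. In T cells the balance between BCL2 and BIM, the product of *Bcl2l11*, is known to govern how many activated cells survive when antigen and growth cytokines decline, and MCL1 is known to be needed throughout T cell development and activation.

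All members share the BH3 element. The 27 coding bases around it are shown for 9 of the members. In BH3-only proteins it is the helix described above, which fits the groove of the pro-survival proteins. The bases were read from the GENCODE vM21 transcripts on mm10, 5′ to 3′ on the coding strand. The capitals mark the leucine and aspartate codons of the pattern used to find the element.
Bcl2 (chr1:106712578-106712604, minus strand, exon 1): accCTCcgccgggctgggGATgacttc
Bcl2l1 (chr2:152829700-152829726, minus strand, exon 2): gcgCTGagagaggcaggcGATgagttt
Mcl1 (chr3:95659433-95659459, plus strand, exon 1): accCTGcggcgcgtgggcGACggcgtg
Bax (chr7:45466000-45466026, minus strand, exon 3): tgtCTCcggcgaattggaGATgaactg
Bak1 (chr17:27022534-27022560, minus strand, exon 4): cagCTTgctctcatcggaGATgatatt
Bcl2l11 (chr2:128147147-128147173, plus strand, exon 3): gagCTGcggcggatcggaGACgagttc
Bid (chr6:120897292-120897318, minus strand, exon 4): catCTCgcccaaataggcGATgagatg
Bad (chr19:6950789-6950815, plus strand, exon 3): gagCTCcgaaggatgagcGATgagttt
Bbc3 (chr7:16313770-16313796, plus strand, exon 3): cagCTGcggcggatggcgGACgacctc

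The stretch lay within 1 exon in each of these 9 genes. In *Bcl2*, *Bcl2l1*, *Bax*, *Bak1* and *Bid* its leucine codon stood before the middle of the coding sequence. It was codon 94 of 236 in *Bcl2*, 63 of 192 in *Bax*, 76 of 209 in *Bak1* and 90 of 195 in *Bid*. In *Mcl1* it stood past the middle (codon 194 of 331), and in *Bcl2l11*, *Bad* and *Bbc3* late (codon 150 of 196, 151 of 204 and 141 of 193). *Pmaip1* held the pattern 2 times. The pattern was written to match known BH3 domains, and 12.9% of 21591 coding genes held it somewhere, so a match alone does not mark a family member. It also misses some, since the BH3-only gene *Bmf*, a relative outside the 10 members, held no match.

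The libraries were first checked against their labels. *Eomes* was at an FPKM (the unit of the deposited values, sequenced fragments scaled to transcript length and library depth) of 2.47 in control and 129.6 in the Eomes library, a log2 ratio of 5.71, and these values do not separate the vector's transcript from that of the cell's own gene. The 5 CD3 and CD8 chain genes summed to an FPKM of 978 in control and 720.0 in the Eomes library, while *Cd4* was at 0.03 and 0.08. All 5 were lower in the Eomes library, and *Cd8a* fell most, from 181.8 to 99.1, a drop of more than 1.5-fold. Marker sums of B cells, myeloid cells, dendritic cells, erythroid cells and stromal cells lay between 0.31 and 2.87 in both libraries. For natural killer cells *Ncr1* was not listed and *Klrb1c* was at 0.31 in control and 5.74 in the Eomes library. The part of these markers in the values below was not tested. In a bulk culture, fewer cells with a transcript and less of it per cell cannot be told apart.

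Log2 ratios are Eomes-overexpressing over control, and a gene counted as expressed at an FPKM of at least 1 in at least 1 library, which 9925 genes and all 10 members met. None of the 10 members passed a 1.5-fold difference in either direction, where 2.46% of the expressed genes were higher past that threshold and 5.19% lower (7.65% in either direction). Of the members, 4 were above 0 and 6 below, with a median log2 ratio of -0.18 beside -0.0037 over all expressed genes, of which 50.5% were below 0. The largest differences were in the BH3-only class, where *Bid* was 1.43 times as high in the Eomes library and *Bbc3* 1.47 times as high in control. With 1 library per condition there is no replicate spread and no test, so intervals below cover counting error alone. They rest on approximate reads, taken from FPKM, reference transcript length and a depth of about 19650000 reads per library that was read from the steps of low FPKM values, and they compare the 2 libraries rather than the conditions.

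**Figure D1:**
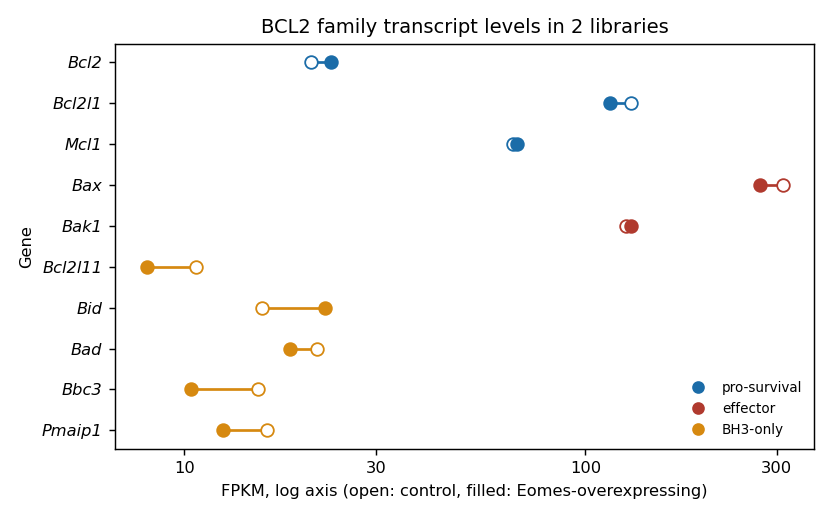
FPKM of the 10 members on a log axis, with open circles for the control library and filled circles for the Eomes-overexpressing library, 1 library each, coloured by class. *Bax* is the highest member and *Bcl2l11* the lowest in both libraries, and the longest connecting lines belong to *Bid*, *Bbc3* and *Bcl2l11*.

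Within each library the members spanned a wide range of levels, since FPKM is scaled to transcript length and can be set side by side between genes. The highest member was 29.0 times the lowest in control and 33.8 times in the Eomes library. In control the order from the top was *Bax*, *Bcl2l1*, *Bak1*, *Mcl1*, *Bad*, *Bcl2*, *Pmaip1*, *Bid*, *Bbc3* and *Bcl2l11*. In Eomes-overexpressing cells it was *Bax*, *Bak1*, *Bcl2l1*, *Mcl1*, *Bcl2*, *Bid*, *Bad*, *Pmaip1*, *Bbc3* and *Bcl2l11*. Both orders thus began with the effectors, *Bcl2l1* and *Mcl1*, and *Bcl2* stood among the BH3-only genes in control and above them, level with *Bid* within counting error, in the Eomes library. Neighbours that did not differ beyond counting error were *Bcl2l1* and *Bak1*, *Bad* and *Bcl2*, *Pmaip1* and *Bid*, and *Bid* and *Bbc3* in control, and *Bcl2* and *Bid* in the Eomes library. *Bax* ranked 242 of 14110 listed genes in control and 284 of 13966 in the Eomes library, and *Bcl2l11* ranked 5457 and 6232.

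Among the pro-survival genes, *Bcl2*, which encodes the founding member of the family, was at an FPKM of 20.7 in control and 23.1 in the Eomes library. Its log2 ratio was 0.16 (95% counting interval 0.09 to 0.24). This small difference exceeded counting error, and it was 0.08 after the log2 ratios were centred on genes of like GC content, as described with the GC content of the members below. *Bcl2* spans chr1:106538178-106714274 on the minus strand of mm10, and its annotated transcripts run from 2841 to 7191 bases, so its approximate reads depend on the transcript chosen.

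*Bcl2l1* encodes BCL-XL, which costimulated T cells are known to induce. It was at an FPKM of 129.7 in control and 115 in the Eomes library, the highest pro-survival level in both. The log2 ratio was -0.17 (-0.22 to -0.12), and -0.08 after GC centring. *Mcl1*, whose product is short-lived and binds BIM and BAK, was at 65.9 and 67.4. Its log2 ratio of 0.03 had a counting interval of -0.03 to 0.09 that includes 0, so no difference in *Mcl1* was detectable at this depth. The 3 pro-survival genes thus lay within 0.17 of 0 on the log2 scale, with 2 above 0 and 1 below, and a median of 0.03.

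Of the effectors, *Bax* was the most abundant member, at an FPKM of 310.3 in control and 272 in the Eomes library. The log2 ratio was -0.19 (-0.25 to -0.13), and -0.08 after GC centring. *Bax* lies at chr7:45461697-45466898, and 17.6% of the 50-base windows of its reference transcript also occur in *Gm45808*, so part of its reads could have been assigned to either gene. *Bak1*, whose product sits in the outer membrane already in healthy cells, was at 126 and 129.7, a log2 ratio of 0.04 (-0.01 to 0.09). GC centring moved the ratio of *Bak1* to 0.13, outside that interval. The effectors differed in the direction of their ratios, and the ratio of *Bak1* to *Bax* within a library was 0.407 in control and 0.477 in the Eomes library. The log2 change of that ratio was 0.23 (0.15 to 0.31), and 0.22 after GC centring.

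**Figure D2:**
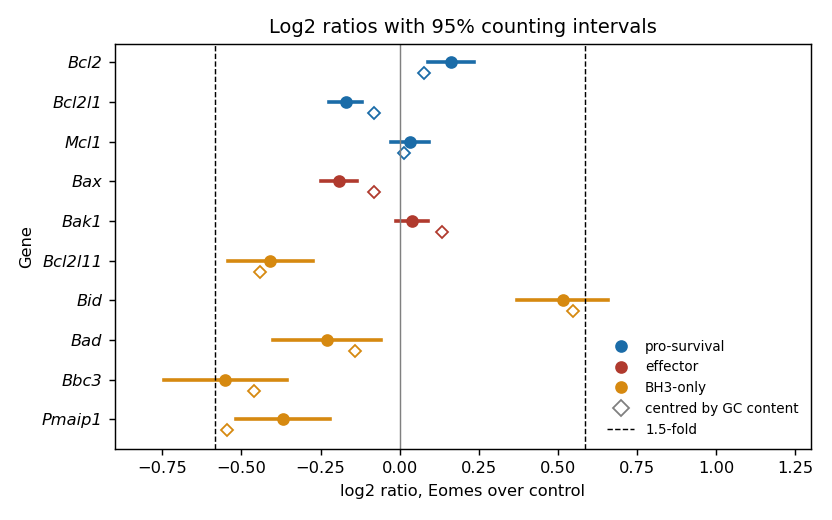
Log2 ratio of each member (filled circles) with its 95% counting interval (bars), the ratio centred on 20 bins of transcript GC content (open diamonds) and the 1.5-fold threshold (dashed lines). All 10 circles lie inside the threshold, and 4 of the 5 BH3-only genes lie below 0 while *Bid* lies at 0.52.

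The BH3-only genes carried the larger ratios. *Bcl2l11* encodes BIM, which binds every pro-survival member and which FOXO factors induce when cytokine signals wane. It was the lowest member in both libraries, with an FPKM of 10.7 in control and 8.05 in the Eomes library. The log2 ratio was -0.41 (-0.54 to -0.27), and -0.44 after GC centring. The gene lies at chr2:128126038-128162547 on the plus strand and has 4 annotated transcripts of 2301 to 5036 bases. With the shortest, the counting interval widened to -0.61 to -0.21, which reaches past the 1.5-fold threshold. BIM is made in several isoforms of unequal potency, and values per gene do not separate them.

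*Bbc3* encodes PUMA, a p53-induced protein that also binds every pro-survival member. It was at an FPKM of 15.2 in control and 10.4 in the Eomes library, which stand for about 543 and 371 reads. The log2 ratio of -0.55 was the lowest of the 10, with a counting interval of -0.74 to -0.36 that reaches past the 1.5-fold threshold, and it was -0.46 after GC centring. *Bbc3* lies at chr7:16308393-16318205 on the plus strand. It ranked 9358 of the 9925 expressed genes from the highest log2 ratio.

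*Pmaip1* encodes NOXA, a further p53 target, which binds chiefly MCL1 and sends it to degradation. It was at an FPKM of 16.1 in control and 12.45 in the Eomes library, a log2 ratio of -0.37 (-0.52 to -0.22). GC centring moved it to -0.55, outside its own counting interval. *Bad*, whose product binds BCL2 and BCL-XL unless survival kinases phosphorylate it, was at 21.5 and 18.3, a log2 ratio of -0.23 (-0.40 to -0.06), and -0.14 after GC centring.

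*Bid* was the exception among the BH3-only genes. Its product is cut by caspase 8, and in target cells by granzyme B, and the truncated form activates BAX and BAK. It was at an FPKM of 15.65 in control and 22.4 in the Eomes library, about 673 and 962 reads. The log2 ratio was 0.52 (0.37 to 0.66), the highest of the 10 members and rank 334 of the 9925 expressed genes, and 0.55 after GC centring. Its counting interval, like that of *Bbc3*, reaches past the 1.5-fold threshold. In control *Bid* was level with *Pmaip1* and *Bbc3* within counting error and below *Bad*, whereas in the Eomes library it stood above all 3. It lies at chr6:120891930-120916853 on the minus strand, and none of the 50-base windows of its transcript occurs in another gene. The 5 BH3-only genes had a median of -0.37, with 1 above 0 and 4 below, and -0.44 after GC centring.

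**Figure D3:**
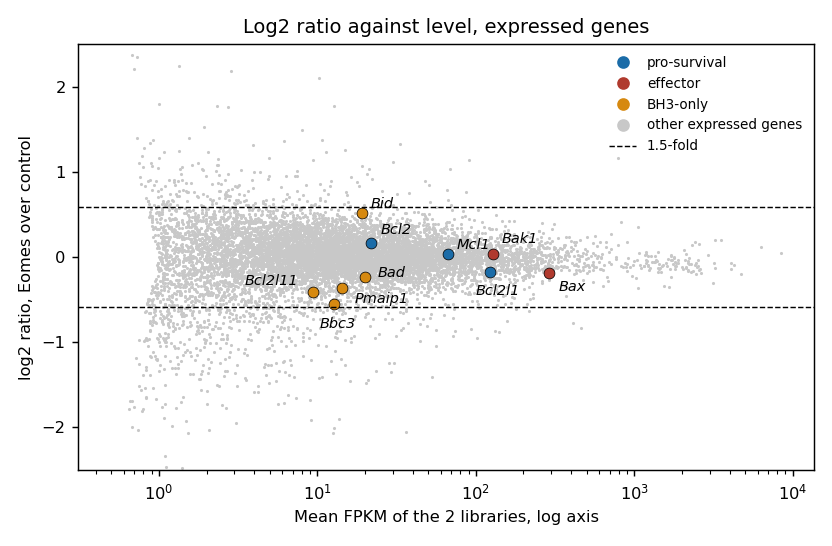
Log2 ratio of each expressed gene against its mean FPKM over the 2 libraries (log axis), with the members coloured by class and the 1.5-fold threshold dashed. The spread of all genes narrows toward high levels, 22 expressed genes lie beyond the plotted range of 2.5 in either direction, and *Bid* sits near the upper edge of the genes of its level.

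Because ratios scatter more at low levels, each member was set beside genes of its own level. Among the 4115 genes with a mean FPKM from 5 to 25, 95% of the log2 ratios lay between -0.66 and 0.49 (the central range), and 6 members fell in that band. *Bid* lay above its upper end, at percentile 97.9, while *Bbc3* (3.69), *Bcl2l11* (6.44) and *Pmaip1* (7.61) lay in the lower part but inside it. *Bcl2* stood at percentile 74.4 and *Bad* at 14.7. In the band from 25 to 100, whose central range was -0.43 to 0.39 over 2329 genes, *Mcl1* stood at percentile 59.5. At 100 and above, with a central range of -0.45 to 0.31 over 910 genes, *Bak1* stood at 69.2, *Bcl2l1* at 14.6 and *Bax* at 12.6. Of the 10 members, *Bid* alone was outside the central range of its band.

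**Figure D4:**
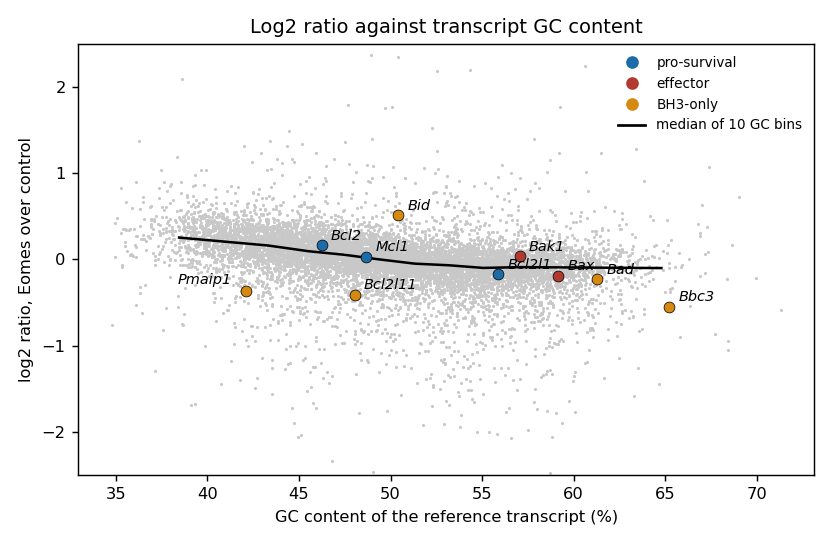
Log2 ratio of each expressed gene against the GC content of its reference transcript (%), with the members coloured by class and a line through the medians of 10 bins of GC content. The line falls from 0.25 in the lowest bin to -0.10 in the highest, *Bid* lies above it, and *Pmaip1*, *Bcl2l11* and *Bbc3* lie below it.

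Log2 ratios over the whole table moved with GC content. The median was 0.25 in the tenth of expressed genes with the lowest GC content and -0.10 in the tenth with the highest. The members had a median GC content of 53.2%, against 50.3% over expressed genes, and 6 of 10 lay above that value. *Pmaip1* was the member with the lowest GC content (42.1%) and *Bbc3* the one with the highest (65.2%). Each log2 ratio was therefore also given after subtracting the median of its GC bin, out of 20 bins. The family median was then -0.08 in place of -0.18. The ratios of *Bid* (0.55), *Pmaip1* (-0.55), *Bbc3* (-0.46) and *Bcl2l11* (-0.44) stood farthest from 0 after centring, the other 6 members lay within 0.14 of 0, and none of the 10 passed 1.5-fold.

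The balance of the classes was compared within each library, where no scaling between libraries enters. The FPKM values summed here were not centred on GC content, so the trend with GC content still enters the class shares and the class ratio. Whether their differences would remain after GC centring was not tested. The summed FPKM of the 10 members was 732 in control and 679 in the Eomes library. Effectors held 59.6% ± 0.32 (counting SE) of it in control and 59.2% ± 0.33 in the Eomes library, pro-survival genes 29.6% ± 0.27 and 30.3% ± 0.28, and BH3-only genes 10.8% ± 0.19 and 10.5% ± 0.19. The shares of the classes thus differed by less than 1 percentage point between the libraries. Only the difference of the pro-survival share exceeded its 95% counting error. It did so narrowly, and the reads behind that error are approximate, so this call is not firm. These shares depend on which genes are counted: the difference of the pro-survival share, 0.76 percentage points (Eomes minus control), was -0.74 without *Bax* and -2.08 with the further relatives of known class. That of the effectors was -0.49, 1.92 and 2.11, and that of the BH3-only genes -0.27, -1.18 and -0.038. All of these alternative values exceeded counting error except -0.74 and -0.038. The ratio of pro-survival to BH3-only transcripts was 2.73 ± 0.054 in control and 2.88 ± 0.059 in the Eomes library. With the further relatives it was 4.73 in control and 4.52 in the Eomes library, so that its direction turned. Neither difference between the libraries exceeded its 95% counting error.

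Ratios of known binding partners, picked after the values were seen, are descriptions of the same FPKM values. The ratio of *Bcl2* to *Bcl2l11* was 1.93 in control and 2.87 in the Eomes library, a log2 change of 0.57 (0.42 to 0.72). That of *Mcl1* to *Bcl2l11* was 6.17 and 8.37 (log2 change 0.44, 0.30 to 0.59), and that of *Bcl2l1* to *Bcl2l11* was 12.1 and 14.3 (0.24, 0.10 to 0.38). These 3 pro-survival genes thus stood higher against *Bcl2l11* in the Eomes library than in control. The A1 genes described below did not: *Bcl2a1b* to *Bcl2l11* was 9.10 and 9.02 (-0.01, -0.18 to 0.16), and *Bcl2a1d* to *Bcl2l11* was 8.18 and 7.14 (-0.19, -0.37 to -0.02). The ratio of *Mcl1* to *Pmaip1* was 4.10 in control and 5.41 in the Eomes library (log2 change 0.40, 0.24 to 0.56), and that of *Bcl2* to *Bbc3* was 1.36 and 2.225 (0.71, 0.51 to 0.92). The ratio of *Bcl2l1* to *Bid* went the other way, from 8.29 to 5.15 (-0.69, -0.84 to -0.54). For *Bcl2l1* to *Bad*, 6.04 and 6.30, the interval of the log2 change (-0.12 to 0.24) included 0. After GC centring the changes kept their direction in all 10 ratios computed, with that of *Bak1* to *Bax* included, and *Bcl2* to *Bbc3* came to 0.54.

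Of 16 further BCL2 relatives, 13 were listed and 10 were expressed. None was higher past 1.5-fold and 4 were lower, beside 2.46% and 5.19% of all expressed genes, and the median of the 10 was -0.35. Among the 2414 genes with a mean FPKM from 1 to 5, 11.5% were lower past the threshold. The central range of that band was -1.21 to 0.78, and *Bmf* and *Bik* fell in the band and inside this range. *Bmf*, a BH3-only gene whose product responds to detachment and cytoskeletal stress, fell from an FPKM of 3.31 in control to 1.58 in the Eomes library, for a log2 ratio of -1.07 (interval with the shortest transcript -1.43 to -0.70). *Bik*, a BH3-only gene of the endoplasmic reticulum, fell from 3.79 to 2.36, a log2 ratio of -0.68 (-1.25 to -0.11) on about 70 and 44 reads. *Bmf* and *Bik* were thus lower past the threshold, while 4 of the 5 BH3-only members had negative ratios inside it. With a pseudocount of 1 *Bik* came inside the threshold (-0.51) and *Bmf* did not (-0.74), and neither reached a minimum FPKM of 5. *Hrk*, a BH3-only gene of neurons, was not listed in either library.

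The other 2 relatives past the threshold belong to the A1 genes, whose full-length copies encode a pro-survival protein that antigen receptor signals induce through NF-κB. *Bcl2a1d* fell from an FPKM of 87.4 in control to 57.5 in the Eomes library (log2 ratio -0.60), and *Bcl2a1c*, a shorter copy of 128 codons against 172 in *Bcl2a1d*, from 1.59 to 0.79 (-1.01). *Bcl2a1b*, the most abundant of the relatives, was at 97.2 and 72.6 (-0.42). *Bcl2a1d* and *Bcl2a1b* share most of their sequence with other copies, since 79.5% and 79.2% of their 50-base windows occur in another gene, against 10.4% for *Bcl2a1c*. How reads were split among them is therefore uncertain, and for *Bcl2a1c*, with about 14 and 7 reads, the counting interval of -2.55 to 0.40 includes 0. *Bcl2a1d* was inside the threshold when the libraries were scaled to equal summed FPKM (-0.57), and *Bcl2a1c* with a pseudocount of 1 (-0.53). Among genes of like level, *Bcl2a1c* lay inside the central range of the band from 1 to 5 (-1.21 to 0.78). *Bcl2a1d*, in the band from 25 to 100, lay below its central range of -0.43 to 0.39.

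**Figure D5:**
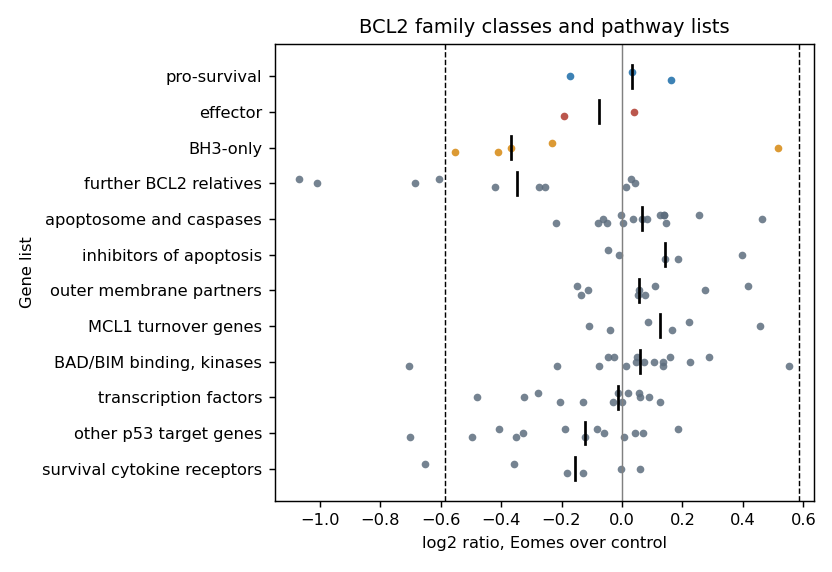
Log2 ratio of each expressed gene of the family classes and of 9 pathway lists (points), with the list median (vertical bars) and the 1.5-fold threshold (dashed lines). Points past the threshold are 4 of the further BCL2 relatives and 1 gene each of the BAD and BIM binding and kinase genes, the p53 target genes and the survival cytokine receptors, and all 7 are on the lower side. Of all expressed genes, 5.19% were lower past the threshold and 2.46% higher.

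The machinery that acts after the effectors open the membrane was also read. All 15 genes of the apoptosome and caspase list were expressed and none passed 1.5-fold (median 0.06). None of the 5 inhibitor of apoptosis genes passed the threshold either (median 0.14, and -0.10 after GC centring), and *Birc5*, which encodes the mitotic protein survivin, was at an FPKM of 166 in control and 183 in the Eomes library. The 9 outer membrane partners of the family held none past the threshold (median 0.06, and -0.03 after GC centring), with the channel gene *Vdac2* at 219 and 227.

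Genes that act on the members' proteins were next. Of 7 genes for turnover of the MCL1 protein, 6 were expressed and none passed the threshold (median 0.13), and *Gsk3a*, a kinase that marks MCL1 for degradation, was at an FPKM of 109.5 in control and 101 in the Eomes library. Among 16 genes whose products bind or phosphorylate BAD and BIM, 1 was lower and none higher (median 0.06), beside 5.19% and 2.46% of all expressed genes. That gene was *Sfn*, the sigma member of the 14-3-3 proteins that hold phosphorylated BAD in the cytosol, which fell from 15.5 to 9.49 (log2 ratio -0.70, -0.91 to -0.49). *Ywhae*, the most abundant 14-3-3 gene of the list, was at 306 and 329.7.

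Among 13 transcription factors known to act on genes of the family, none passed 1.5-fold, and the median was -0.01, or 0.05 after GC centring. *Atf4*, a stress-induced factor upstream of *Pmaip1*, was the most abundant, at an FPKM of 200.6 in control and 200.8 in the Eomes library. Since *Bbc3* and *Pmaip1* are p53 targets, 14 p53 target genes outside the family were set beside them. Of these, 13 were expressed, 1 was lower and none higher, with 4 above 0 and 9 below and a median of -0.12. Over all expressed genes 50.5% were below 0, 5.19% were lower past the threshold and 2.46% higher. After GC centring the median was -0.17 and 2 were lower, *Plk2* (-0.73) and *Trp53inp1* (-0.61, against -0.33 before), the latter named after its value was seen. *Plk2*, a polo-like kinase gene, fell from 6.26 to 3.85 (log2 ratio -0.70, -0.95 to -0.45, and -0.58 with a pseudocount of 1, inside the threshold), and *Cdkn1a*, which encodes the cell cycle inhibitor p21, was at 259 and 183 (-0.50). *Bbc3* and *Pmaip1* lay below the median of this list.

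The receptors through which cytokines are known to sustain *Bcl2* and *Mcl1* were all expressed. Of the 6, 1 was lower past the threshold and none higher, beside 5.19% and 2.46% of all expressed genes. Their median was -0.16, or -0.34 after GC centring, with 1 above 0 and 5 below. *Il4ra*, the IL-4 receptor chain, fell from an FPKM of 42.5 in control to 27.1 in the Eomes library (log2 ratio -0.65, -0.72 to -0.58, and -0.56 after GC centring, inside the threshold). *Il2rb*, the IL-2 and IL-15 receptor chain, was the most abundant at 674 and 702.

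The promoters of the members were searched for the T-box letters AGGTGTGA, which Eomes and related factors are known to bind. RefSeq windows of 250 bases before to 50 bases after a start were at hand for 9 members, 15 windows on GRCm38.p6, and none held the 8 letters on either strand, while 1.28% of all 32851 windows did. The shorter GGTGTGA, which the longer string contains, occurred in 1 of the 15, a window of *Bcl2l1* at chr2:152828440-152828739, and in 3.98% of all windows. That match is printed with its flanks because it was the 1 window of the family that held either string, with the motif in capitals, at position -140 from the start.
Bcl2l1 promoter window: gactgtatgtgGGTGTGAgtcctggccctg

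The third string searched, AGGTGTG, which overlaps both, was in 5.84% of all windows and in none of the members' 15. At such low background shares, 15 windows, some of them overlapping, are too few to set the members apart from all windows. Sites farther from the starts were not searched. A match is a run of letters, and no binding was measured here.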

How the data were processed

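Total RNA of restimulated OT-I cells was sequenced by the authors as 1 library per condition on an Illumina HiSeq instrument. Reads were filtered with SOAPnuke, mapped to mm10 with HISAT and Bowtie2, and quantified with RSEM, and the submitters' processing notes name HISAT2, Bowtie2 and RSEM. The deposited values are FPKM, given once for each gene symbol, which their methods call RPKM, with 14130 rows for control and 13985 for Eomes-overexpressing cells. The sources used here describe no further scaling of one library to the other. Rows whose symbol had become a date (20 and 19) were left out.

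Scripts ran in Python 3.11.15 with scipy 1.17.1, pandas 2.3.3 and numpy 2.4.6. Log2 ratios were taken with values under 0.01 or not listed set to 0.01, and plots were drawn with matplotlib 3.10.9. Genes at an FPKM of at least 1 in at least 1 library counted as expressed, and the threshold was 1.5-fold. No test between conditions exists with 1 library each, so every interval covers counting error only. Intervals of single genes are 95% Clopper-Pearson intervals on approximate reads. Those of ratios between genes are 95% normal approximations on the log scale from the same reads. Class shares and class ratios carry counting SEs from these reads, and their 95% counting error is a normal approximation too. Reads are FPKM times the length of the longest RefSeq-linked GENCODE vM21 transcript times the depth. The depth, about 19650000 reads for each library, is the value at which low FPKM values of 1370 and 1345 genes came closest to whole reads, and was 19000000 to 19700000 with other limits on reads. These steps were also run on simulated data, made of whole reads with the same transcript lengths. Such data cannot show whether the depth read from the deposited values is right. The 10 members, the pathway lists and the cell type markers were chosen with earlier results of these data known. Named were all members, of each list the genes past 1.5-fold (at most 5) and the most abundant gene, and *Eomes*. The most abundant gene of 1 list is not reported here. BH3-coding stretches came from GENCODE vM21 and promoter windows from RefSeq (GRCm38.p6). Alternatives were pseudocounts of 0.1 and 1, a minimum FPKM of 5 or none, a 2-fold threshold, scaling to equal summed FPKM (TPM), to the median or by a trimmed mean, centring on 20 bins of GC content, and other sets of genes for the class shares. Centring on 10 bins of GC content and on 20 bins of mean FPKM was added after seeing the data.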

Additional observations from a re-analysis of the deposited data

How the results depend on the processing

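Each member's log2 ratio kept its direction under all alternatives tried, and 70 of 80 recomputed values stayed within the counting interval. The 10 that did not came from centring on GC content and belong to *Bcl2*, *Bcl2l1*, *Bax*, *Bak1* and *Pmaip1*. The family median of -0.18 was -0.080 with 20 bins of GC content and -0.081 with 10. No member passed 1.5-fold except under centring on 20 bins of mean FPKM, where 1 was lower, *Bbc3* at -0.59. *Bid* ranged from 0.49 to 0.56, *Bbc3* from -0.59 to -0.45, *Bcl2l11* from -0.46 to -0.37 and *Pmaip1* from -0.55 to -0.34. Without *Bax*, the shares of summed FPKM in control and Eomes-overexpressing cells were 51.3% and 50.6% for pro-survival genes, 29.9% and 31.9% for effectors and 18.8% and 17.6% for BH3-only genes. With the further relatives of known class they were 43.8% and 41.7%, 47.0% and 49.1%, and 9.26% and 9.22%. In both sets the pro-survival difference turned negative and the effector difference positive, and with the relatives pro-survival over BH3-only was 4.73 and 4.52. Over the pathway lists, 7 genes were lower past 1.5-fold, against 2 past 2-fold, 4 at a minimum FPKM of 5, 4 with a pseudocount of 1, 6 under TPM scaling and 10 with no minimum FPKM. Of all expressed genes, 5.19% were lower past 1.5-fold and 2.46% higher in the main setting. With 20 bins of GC content the count was again 7, but *Il4ra* left the set and *Trp53inp1* entered it. None was higher, except 1 after centring on 20 bins of GC content, *Pim2*, a survival kinase gene named after its value was seen (log2 ratio 0.55, and 0.64 centred). Scaling to TPM moved the median of all genes by 0.03. No paired analysis was possible because each group is 1 library and the groups share a single replicate number, and leaving out a replicate leaves no comparison. Depth limited the relatives with few reads most, such as *Bcl2a1c*.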
